A study of Homo sapiens with 10 samples.

Results

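BACH1 KO clones and WT clones of MDA-MB-231, a human triple-negative breast cancer line, were compared after 40 hours in medium without glucose. Transcript levels came from 5 libraries, 1 for each of 2 WT clones and 3 BACH1 KO clones, of 10 libraries in the whole series. The other 5 libraries came from the same clones at 4.5 g/liter glucose for the same 40 hours. The KO clones were single-cell-derived lines made with Cas9 and a guide RNA against BACH1 and picked by Western blot. The other clones are titled Ctrl and are called WT here, a name the study's methods use. All 5 libraries share the line and the DMEM without glucose. Each genotype is thus represented by a few clonal lines, and the clones are the replicates. A gene entered the comparison if it reached 1 TPM (a transcript's share of the library, scaled to its length) in at least 2 of the 5 libraries, and 13023 of 36459 symbols did. For each gene the 3 KO values were set against both WT values on the log2(TPM + 1) scale, and a gene is described as not overlapping where every KO value lay above, or every KO value below, both WT values.

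BACH1 is a transcription factor that pairs with small MAF proteins on antioxidant response elements, where it represses genes of heme breakdown, iron storage and glutathione synthesis. Heme binds BACH1 and leads to its release from DNA and its degradation, and the activator NRF2, encoded by NFE2L2, competes for the same elements. In breast cancer cells BACH1 is also known as a factor that raises the transcription of genes tied to invasion.

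HMOX1 and FTH1, genes of heme breakdown and iron storage, led the higher side by size of difference, and TIMP3, an inhibitor of matrix metalloproteinases, led the lower side. All 3 KO clones lay above both WT clones in 736 genes (5.65% of the 13023 tested) and below both in 1038 genes (7.97%), which is 1774 genes in all (13.6%). Of the 10 ways to pick 3 of these libraries, 1 takes those with the highest values and 1 those with the lowest. If the clones were interchangeable, 1 gene in 10 would lie on each side on average. Both shares are below that, so the counts alone show no excess of genes without overlap. Most of the differences in these 1774 genes were small. Of the 736 genes on the higher side, 436 (59.2%) differed by under 0.25 on the log2 scale, 57 by 0.5 or more and 9 by 1 or more, with a median of 0.22. Of the 1038 genes on the lower side, 468 (45.1%) differed by under 0.25, 157 by 0.5 or more and 46 by 1 or more, with a median of -0.27. The median over all genes tested was -0.02. In bulk RNA, a lower level per cell and fewer expressing cells cannot be told apart. Quantile normalization moved the split to 988 genes higher and 842 lower, so which side holds more genes depends on the scaling.

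In limma, fitted over all 10 libraries with Benjamini-Hochberg adjustment over the 13023 genes, 5 genes had an adjusted p under 0.05 at 0 g/liter (0.0384% of those tested). FTH1 was the 1 gene called higher (0.00768%). The 4 called lower (0.0307%) were TIMP3, GGT5, KRT19 and RNA5SP435. TIMP3, GGT5 and RNA5SP435 were under 1 TPM in every KO clone, so they reached the level filter through the WT libraries alone. Their lack of overlap followed from that filter. At an unadjusted p under 0.05 there were 126 genes higher (0.968%) and 257 lower (1.97%). Without either WT library at 0 g/liter the call of TIMP3 alone remained. Without KO clone 3 at 0 g/liter 2 genes were called, TIMP3 and TMSB4XP3, and without the same clone at 4.5 g/liter KRT19 and TIMP3 were called. Without KO clone 1 at 0 g/liter all 5 calls remained among 10, and without KO clone 2 among 9. An exact permutation test of 3 clones against 2 has 10 splits and cannot go below p = 0.1 (two-sided), so a gene without overlap reaches its smallest p and no single gene can pass it.

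**Figure D1:**
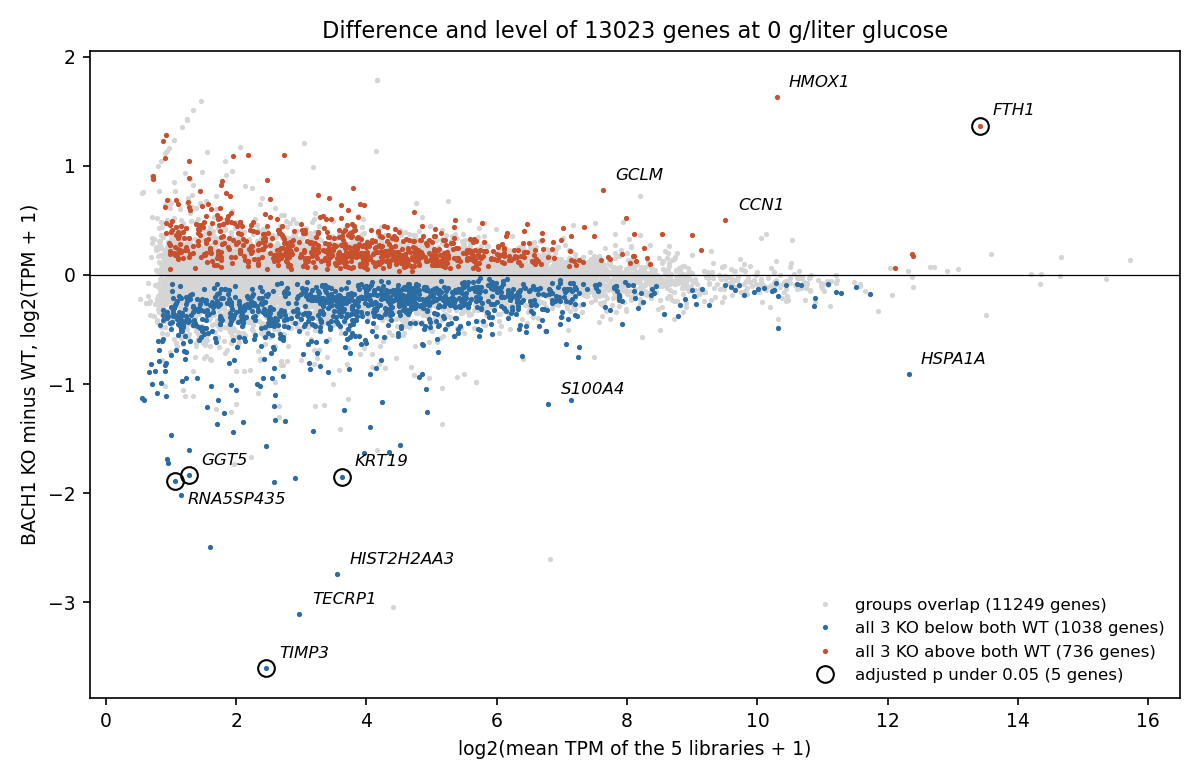
Difference between BACH1 KO and WT at 0 g/liter glucose (y axis, log2(TPM + 1), mean of 3 KO clones minus mean of 2 WT clones) against the log2 mean level of the 5 libraries (x axis), 1 point per gene for 13023 genes. Orange points have all 3 KO clones above both WT clones (736 genes), blue points have all 3 below (1038 genes), grey points overlap, and circles mark the 5 genes with an adjusted p under 0.05, of which FTH1 lies above 0.

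Differences were spread over all expression levels, and the share of lower genes was highest among the most abundant ones. Among 3134 genes with a mean under 5 TPM over the 5 libraries, 6.06% did not overlap on the higher side and 9.0% on the lower side. The 7324 genes from 5 to 50 TPM gave 6.06% and 7.28%, and the 2342 genes from 50 to 500 TPM gave 4.01% and 8.28%. Of the 223 genes at 500 TPM or more, 8 (3.59%) lay above WT and 29 (13%) below. The depth behind a TPM value is unknown, so the counting error of low values is unknown as well. Of the genes without overlap, 37 on the higher side reached the level filter only through the KO libraries and 41 on the lower side only through the WT libraries, and these had to differ. TPM is a share of each library, and mitochondrially encoded genes took 29.1% of the TPM in KO clone 1 against 22.4 to 24.7% in the other 4 libraries at 0 g/liter. The part of this difference in the shares above was not tested.

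BACH1 transcript itself did not separate the genotypes without glucose. The WT clones had 19.7 and 20.6 TPM, against 12.6, 23.9 and 17.2 TPM in KO. KO clone 2 lay above both WT clones and the other KO clones below them, with a log2 difference of -0.20 (standard error 0.26, exact permutation p = 0.7, n = 2 and 3). At 4.5 g/liter BACH1 was at 8.61 and 8.13 TPM in WT and 5.18, 2.84 and 3.42 TPM in KO, with no overlap. A small Cas9 lesion need not lower the transcript, so TPM does not test the knockout, which the study judged on protein.

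HMOX1, which encodes the heme oxygenase that opens the heme ring and releases iron, had the largest difference on the higher side among genes without overlap. WT levels were 532 and 568 TPM, against 1356, 1780.0 and 2033 TPM in KO. The lowest KO clone was well above the highest WT clone, and the means of 550.1 ± 25.8 (SD, n = 2) and 1723 ± 342 TPM (SD, n = 3) differed 3.13-fold. The log2 difference was 1.63 (standard error 0.24), with an adjusted p of 0.13 in limma, which misses the threshold. HMOX1 passed it in 5 of 20 alternative fits, with adjusted p from 0.0137 to 1.00. It was called with the clone as a random block, which pairs a clone's glucose levels, and not in the 5 libraries at 0 g/liter alone. At 4.5 g/liter the same clones had 6.58 and 8.78 TPM in WT and 274, 470.4 and 394 TPM in KO, a log2 difference of 5.43. The difference between these contrasts was -3.80 (standard error 0.33, adjusted p = 0.0115 in limma), and HMOX1 was the 1 gene called for it (0.00768%). At an unadjusted p under 0.05 the contrasts differed for 119 genes (0.914%). Leaving out any 1 of the 4 WT libraries removed that call. With the clone as a random block, which pairs its libraries at both glucose levels, 3 genes were called, HMOX1, RNA5SP217 and AP000781.2, the last pair named after their values were seen.

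FTH1, the heavy chain of ferritin that stores iron and oxidizes it, rose in the KO clones. It was at 5704 and 5444 TPM in WT and at 15349.9, 11557 and 16800.5 TPM in KO. Every KO clone had more than the highest WT clone by at least 1.02 on the log2 scale. The difference of means was 2.61-fold, a log2 difference of 1.37 (standard error 0.15, 95% interval 1.04 to 1.70, adjusted p = 0.0143 in limma), and it was called in 14 of 20 alternative fits. FTL, the ferritin light chain, was at 5969 and 5245 TPM in WT and at 4872, 4906 and 5877 TPM in KO, so its groups overlapped and its log2 difference of -0.11 had the other sign. The transferrin receptor TFRC, which imports iron, was at 80.9 and 92.0 TPM in WT and 138, 102 and 102 TPM in KO. IREB2, an iron regulatory protein that binds ferritin and transferrin receptor mRNAs, was at 9.68 and 10.9 TPM in WT and 13, 11.6 and 17.2 TPM in KO. TFRC and IREB2 had no overlap and did not pass the adjusted test. In all, 3 of 18 tested iron genes lay above WT (16.7%, against 5.65% of all genes tested) and 0 below (against 7.97%), and the median of the 18 was -0.0090.

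Of 18 tested genes of heme synthesis, transport and breakdown, 2 lay above WT and 2 below (11.1% each, against 5.65% and 7.97% of all genes tested). The heme transporter SLC48A1, which moves heme out of lysosomes, was at 10.6 and 9.20 TPM in WT and 20.9, 17.1 and 11.5 TPM in KO. KO clone 3 was close to WT and the other KO clones were apart from it (log2 difference 0.65, standard error 0.22). ALAD, which makes porphobilinogen, was lower by 0.31 and PGRMC1, a heme-binding membrane protein, by 0.29. HMOX2, the constitutive heme oxygenase, overlapped at 47.0 and 55.0 TPM in WT and 41.7, 56.2 and 34.2 TPM in KO.

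GCLM, the modifier subunit of glutamate-cysteine ligase, which makes the precursor of glutathione, was the next antioxidant gene in rank. It was at 119 and 154 TPM in WT and 188, 275 and 245 TPM in KO. The groups did not overlap, although the WT clones differed from each other by about as much as the gap to the nearest KO clone (log2 difference 0.78, standard error 0.20, unadjusted p = 0.00384). GCLC, the catalytic subunit, was at 28.0 and 34.4 TPM in WT and 35.9, 45.6 and 36.4 TPM in KO. Of 29 tested genes of cystine import and glutathione metabolism, 4 lay above WT (GCLC, GCLM, GSTM1 and MGST1) and 3 below (GSS, GSTO1 and GGT5), which is 13.8% and 10.3% against 5.65% and 7.97% of all genes tested. Of 32 genes of the thioredoxin system, NQO1 and NADPH production, 3 lay above (TXNRD2, PRDX5 and ME1) and 3 below (PRDX6, TALDO1 and CAT), or 9.38% on each side. ME1, malic enzyme, was at 16.3 and 15.9 TPM in WT and 17.8, 17.0 and 18.1 TPM in KO, a difference of 0.12. The cystine carrier SLC7A11 overlapped at 44.3 and 47.4 TPM in WT and 69.8, 70.4 and 41.5 TPM in KO. NQO1 and TXNRD1, which reduce quinones and thioredoxin, also overlapped, with log2 differences of 0.20 and 0.15. Among 9 tested BACH, NRF and small MAF genes, 2 lay above WT (22.2%, against 5.65% of all genes tested) and 0 below (against 7.97%). NFE2L1 and NFE2L2 were the genes above, by 0.16 and 0.13, and MAFG and BACH2 overlapped.

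The stretches before the RefSeq start sites of 3 genes are shown because they hold the letters of elements that BACH1 and its competitors or AP-1 factors are known to bind. The letters searched were TGACNNNGC, the core of the antioxidant response element, and TGAGTCA, an AP-1 element, both on either strand, in windows from 250 bases before to 50 bases after the start. TGACTCAGC, as in ME1, is a match to both. Capitals mark the matches, and each line gives the 250 bases before the start, 5′ to 3′ on the gene's strand, in build GRCh38.p14, at chr1:93909431-93909680 for GCLM, chr6:83431052-83431301 for ME1 and chr5:135578992-135579241 for CXCL14, all on the minus strand.
GCLM: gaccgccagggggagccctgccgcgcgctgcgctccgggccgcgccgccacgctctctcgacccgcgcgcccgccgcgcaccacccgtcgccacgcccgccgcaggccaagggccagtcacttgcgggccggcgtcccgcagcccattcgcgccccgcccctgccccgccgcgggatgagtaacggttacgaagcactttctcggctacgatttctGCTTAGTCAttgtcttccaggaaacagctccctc
ME1: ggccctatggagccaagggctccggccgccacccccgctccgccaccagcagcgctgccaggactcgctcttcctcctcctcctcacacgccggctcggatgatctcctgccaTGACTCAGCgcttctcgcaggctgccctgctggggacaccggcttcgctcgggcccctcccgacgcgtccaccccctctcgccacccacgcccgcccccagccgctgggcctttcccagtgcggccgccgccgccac
CXCL14: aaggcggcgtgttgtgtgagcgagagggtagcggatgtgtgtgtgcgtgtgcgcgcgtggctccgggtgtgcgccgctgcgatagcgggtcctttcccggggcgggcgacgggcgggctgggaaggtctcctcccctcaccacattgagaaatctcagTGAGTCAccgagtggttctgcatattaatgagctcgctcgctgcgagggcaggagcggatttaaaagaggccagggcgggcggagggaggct
RefSeq promoters were matched for 9889 of the 13023 genes. TGACNNNGC was present in 15.2% of all of these, in 14.1% of the genes lying above WT and in 13.3% of those lying below. TGAGTCA was present in 3.07% of all, 3.14% of those above and 4.34% of those below. A match is a description of letters and not a bound site. HMOX1, FTH1, KRT19, GGT5, NGFR and CST7 had no matched promoter and were not searched, so these shares do not cover them. Elements more than 250 bases before the start lay outside the windows.

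TIMP3, a secreted inhibitor of matrix metalloproteinases that is anchored in the extracellular matrix, fell the most of all genes tested. Its WT levels were 10.4 and 12.2 TPM, and it was listed at 0 in KO clone 1 and was at 0.0110 and 0.00992 TPM in KO clones 2 and 3. The genotypes were far apart, with a gap of 3.49 on the log2 scale between the nearest clones. The log2(TPM + 1) difference was -3.61 (standard error 0.17, adjusted p = 3.39e-05 in limma), and TIMP3 was called in all 20 alternative fits. At 4.5 g/liter it was at 3.47 and 4.0 TPM in WT, listed at 0 in KO clones 1 and 2 and at 0.0161 TPM in KO clone 3. TIMP3 lies on chromosome 22 from 32801705 to 32863041 (GRCh38, GENCODE v44), within an intron of SYN3 on the other strand.

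KRT19, a keratin of simple epithelia, fell as well. It was at 21.6 and 19.9 TPM in WT and at 4.13, 6.06 and 5.04 TPM in KO. The clones of each genotype were close together, and the means of 20.7 ± 1.18 (SD, n = 2) and 5.08 ± 0.962 TPM (SD, n = 3) differed 4.08-fold (log2 difference -1.85, standard error 0.18, adjusted p = 0.0143 in limma). At 4.5 g/liter KRT19 had nearly the same levels, 23.0 and 18.4 TPM in WT and 3.45, 4.43 and 4.91 TPM in KO. KRT18, its relative, was at 276 and 290.1 TPM in WT and 243, 245 and 149.5 TPM in KO, and the junction plaque proteins DSP and PKP2 lay below WT by 0.44 and 0.39. Of 23 tested keratins and epithelial junction genes, 1 lay above WT (4.35%, against 5.65% of all genes tested) and 4 below (17.4%, against 7.97%). The 1 gene above was KRT81, a hair keratin expressed in this line, at 207 and 191 TPM in WT and 292, 317 and 254 TPM in KO.

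GGT5, a gamma-glutamyltransferase that cleaves glutathione conjugates outside the cell, was at 3.61 and 2.89 TPM in WT and at 0.154, 0.305 and 0.108 TPM in KO. It fell by 1.84 on the log2(TPM + 1) scale (standard error 0.20, adjusted p = 0.0143 in limma), and the means differed 17.2-fold. RNA5SP435, a pseudogene of 5S ribosomal RNA, was at 2.81 and 2.57 TPM in WT and was listed at 0 in all 3 KO clones. Its log2(TPM + 1) difference of -1.88 depends on the pseudocount (adjusted p = 0.0143 in limma). The study enriched RNA by poly-A pull-down, and how many reads lie behind these RNA5SP435 values is unknown. Both are low-level genes, and their differences ranged from -3.59 to -1.71 and from -4.80 to -1.83 over the alternative fits.

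**Figure D2:**
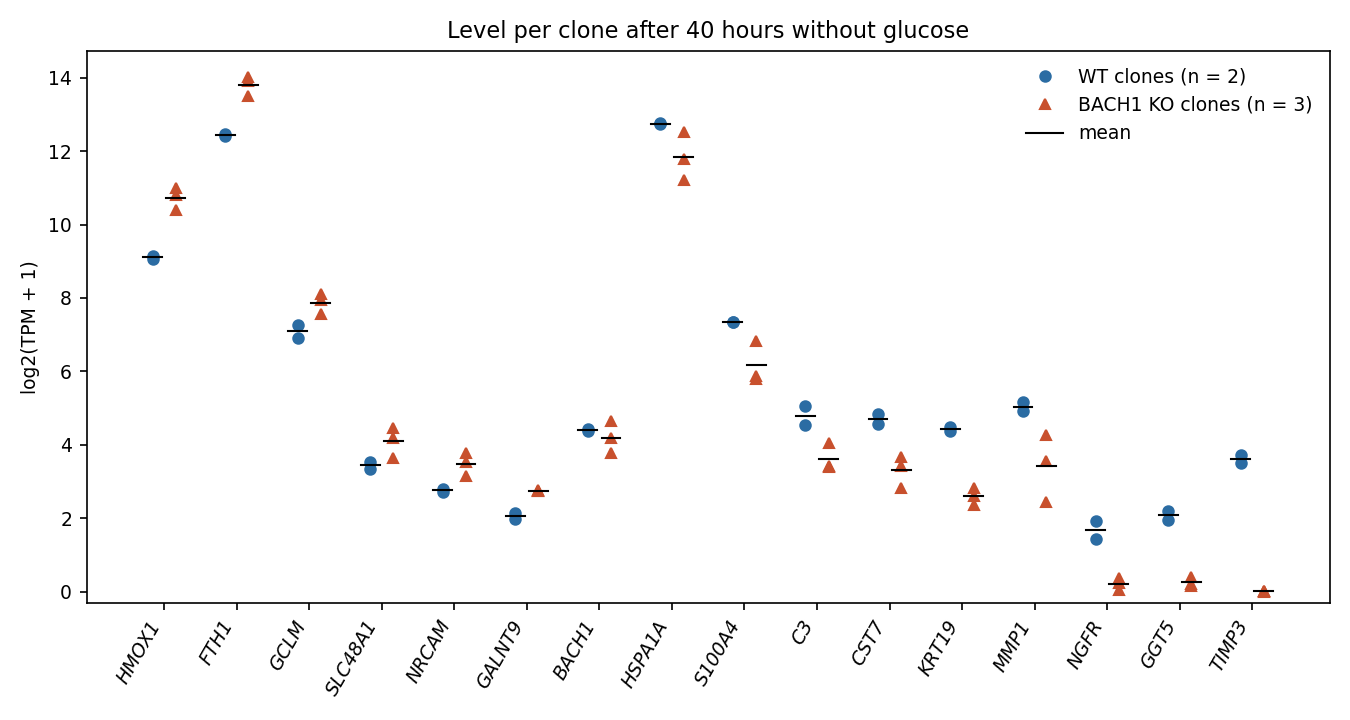
Levels of named genes at 0 g/liter glucose (y axis, log2(TPM + 1)), 1 circle per WT clone (n = 2) and 1 triangle per BACH1 KO clone (n = 3), with the group mean as a bar. HMOX1 and FTH1 lie higher in all 3 KO clones, TIMP3, GGT5 and NGFR lie near 0 in them, the KO clones of MMP1 and HSPA1A are widely spread, and BACH1 overlaps.

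Protease inhibitors lay below WT in 9 of 25 tested members and above in 2 (36.0% and 8%, against 7.97% and 5.65% of all genes tested). The list's median log2 difference was -0.21. Besides TIMP3, the lower members were TIMP4, SERPINB2, SERPINH1, SPINT1, TFPI2 and the cystatins CST1, CST4 and CST7. Among them TIMP3, CST1 and CST4 were under 1 TPM in every KO clone. They reached the level filter through the WT libraries alone and could only lie lower. CST7 is also a gene that the study chose on these samples. CST7, or cystatin F, which inhibits lysosomal cysteine proteases, was at 27.5 and 22.8 TPM in WT and 11.8, 6.11 and 9.73 TPM in KO. CST4, a secreted cystatin, was at 1.36 and 1.29 TPM in WT and 0.107, 0.0842 and 0.302 TPM in KO. The neighbouring CST1 was at 1.40 and 1.61 TPM in WT and 0.264, 0.166 and 0.903 TPM in KO. TFPI2, an inhibitor of plasmin and other serine proteases, was at 61.5 and 64.0 TPM in WT and 41.6, 47.6 and 43.6 TPM in KO. TIMP3 was the 1 called member.

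Of 19 tested matrix metalloproteinases and ADAM proteases, which cut matrix and cell surface proteins, 16 overlapped. The other 3 lay below WT (15.8%, against 7.97% of all genes tested) and 0 above (against 5.65%), and none was called. MMP1, an interstitial collagenase, was at 29.4 and 34.6 TPM in WT and at 18.1, 10.7 and 4.46 TPM in KO. KO clone 3 had the least and KO clone 1 the most, and all were below WT (log2 difference -1.62, standard error 0.62). The stromelysins MMP3 and MMP10 had log2 differences of -0.86 and -1.10, and both were lowest in KO clone 3. At 4.5 g/liter all 3 genes were near or under 3 TPM in every clone and the groups overlapped. The urokinase receptor PLAUR was at 164 and 152 TPM in WT and at 93.1, 143 and 127 TPM in KO.

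Mesenchymal genes and EMT regulators lay below WT in 4 of 19 tested members (21.1%, against 7.97% of all genes tested) and above in 0. Their median of -0.23 was -0.05 without KO clone 3 and -0.34 without WT clone 2, at the ends of the range over the alternative fits. S100A4, a calcium-binding protein of motile cells, was at 163 and 162 TPM in WT and 58.2, 54.8 and 112 TPM in KO. KO clone 3 kept more than the other KO clones (log2 difference -1.19, standard error 0.36). TAGLN, which binds actin filaments, was at 214 and 190.1 TPM in WT and 139.6, 102 and 52.3 TPM in KO, here with KO clone 3 as the lowest. SPARC, a matrix glycoprotein, and the receptor PDGFRB had log2 differences of -1.02 and -0.47. None of the 4 passed the adjusted test.

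Complement and acute-phase genes lay below WT in 3 of 15 tested members (20%, against 7.97% of all genes tested) and above in 0, and none was called. The complement component C3 was at 22.2 and 32.1 TPM in WT and at 9.49, 15.5 and 9.78 TPM in KO (log2 difference -1.17, standard error 0.26). The serum amyloid A genes SAA1 and SAA2 are near-identical, so their reads may be shared, and their sum was 27.2 and 68.4 TPM in WT against 13, 15.1 and 13.9 TPM in KO. WT clone 2 had more than WT clone 1, and the KO clones were close together below both. IL11, a secreted cytokine, was at 188 and 193 TPM in WT and at 85.1, 184 and 111 TPM in KO.

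The study's text names CST7, CEMIP, NGFR, CXCL14 and PGF as genes tied to metastasis, and all 5 lay below WT without glucose, with a median of -1.01. The study chose them on these samples, so their direction here is not independent evidence. It also reports other experiments on these genes, among them qPCR of all 5 in WT and BACH1 knockout cells, which are not part of these libraries. NGFR, the p75 neurotrophin receptor, was at 2.79 and 1.71 TPM in WT and 0.168, 0.0302 and 0.289 TPM in KO. It was under 1 TPM in every KO clone, so it reached the level filter through the WT libraries alone and could only lie lower. CEMIP, which degrades hyaluronan, was at 4.55 and 4.07 TPM in WT and 0.695, 2.24 and 2.35 TPM in KO. PGF, placental growth factor, was at 3.20 and 2.22 TPM in WT and 0.709, 0.791 and 1.29 TPM in KO. CXCL14, a chemokine, was at 1.96 and 1.48 TPM in WT and 1.36, 0.760 and 0.829 TPM in KO. CST7 was the most abundant of the 5, and the other 4 were under 5 TPM in every library. None passed the adjusted test at 0 g/liter (adjusted p from 0.131 to 1.00 in limma). Also low and lower, ENG, an endothelial co-receptor for TGF-beta, was at 1.23 and 1.26 TPM in WT and 0.0237 and 0.0186 TPM in KO clones 1 and 2, and was listed at 0 in KO clone 3. ENG likewise reached the level filter through the WT libraries alone and could only lie lower.

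Other leading genes on the higher side were of moderate level. NRCAM, a neuronal adhesion molecule, was at 5.61 and 5.91 TPM in WT and 7.79, 12.8 and 10.6 TPM in KO. GALNT9, which starts mucin-type glycosylation, was at 3.39 and 2.96 TPM in WT and 5.82, 5.66 and 5.73 TPM in KO. NRCAM and GALNT9 also lay above WT at 4.5 g/liter. The secreted metalloprotease ADAMTS17, the adhesion protein NINJ2, and SEL1L3 and UNKL had log2 differences of 0.64, 0.60, 0.80 and 0.57 and likewise had no overlap at 4.5 g/liter. CDRT1, FAM24B and the pseudogene NUS1P1 had differences of 0.71, 0.64 and 0.56. AC026412.1 and HERC2P3, a pseudogene copied from HERC2, were at 2.67 to 2.98 TPM in WT and 5.65 to 8.16 TPM in KO at 0 g/liter and overlapped at 4.5 g/liter. Among genes under 5 TPM, ENPP2, which makes lysophosphatidic acid, was at 1.5 and 1.85 TPM in WT and 3.88, 5.19 and 5.21 TPM in KO. AP001893.2 and SEPT14P4 were listed at 0 in both WT clones, so they reached the level filter through the KO libraries alone and could only lie higher.

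Among the other leading genes on the lower side, several were pseudogenes, were listed at 0 in some clones or have a near-identical copy. TECRP1, a processed pseudogene, was at 27.9 and 4.43 TPM in WT and 0.141, 1.69 and 7.13e-05 TPM in KO, and at 4.5 g/liter the groups overlapped. The histone gene HIST2H2AA3 was at 18.3 and 26.6 TPM in WT and at 4.86, 0.732 and 3.01 TPM in KO. Its near-identical copy HIST2H2AA4 was at 7.52 and 9.06 TPM in WT and 8.32, 32.0 and 26.4 TPM in KO, and the sum of the pair overlapped, at 25.8 and 35.7 TPM in WT and 13.2, 32.7 and 29.4 TPM in KO. RNA5SP385, AC242842.2, AL356095.3 and AC010332.1 were listed at 0 in 1 or more KO clones. RNA5SP385 and AC010332.1 were at 0 in every KO clone, so they reached the level filter through the WT libraries alone and could only lie lower. MFAP2, a component of elastic microfibrils, was at 11.4 and 9.76 TPM in WT and at 9.57, 1.11 and 0.449 TPM in KO, so KO clone 1 was close to WT. SLCO4A1, an organic anion carrier, was at 23.0 and 23.9 TPM in WT and at 3.25, 5.43 and 16.9 TPM in KO, with KO clone 3 close to WT. GMFG, an actin regulator, was at 8.70 and 7.41 TPM in WT and at 1.81, 3.43 and 1.27 TPM in KO (log2 difference -1.57, standard error 0.26, adjusted p = 0.189 in limma). FBLIM1, a filamin-binding adhesion protein, was at 15.2 and 11.6 TPM in WT and 6.66, 4.07 and 2.80 TPM in KO, and PALM, a membrane-shape protein, had a log2 difference of -1.43. MFAP2, GMFG and FBLIM1 also lay below WT at 4.5 g/liter.

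ATF4 is the transcription factor of the integrated stress response, and most of its tested target genes overlapped. Of 39 tested, 9 lay above WT (23.1%, against 5.65% of all genes tested) and 1 below (2.56%, against 7.97%), and none was called or had an unadjusted p under 0.05 on the higher side. The median log2 difference of 0.11 ranged from 0.0025 to 0.18 over the alternative fits, with the lowest value under a block on the clone number. CEBPB, a bZIP factor, was at 41.1 and 44.9 TPM in WT and 54.1, 67.9 and 59.7 TPM in KO. SLC6A9, a glycine carrier, was at 11.6 and 9.59 TPM in WT and 16.7, 15.98 and 14.6 TPM in KO. The secreted peptide ADM2 was at 4.65 and 3.80 TPM in WT and 5.53, 7.09 and 5.33 TPM in KO. GDF15, a stress-induced cytokine, was the 1 member below WT, at 37.5 and 46.3 TPM in WT and 11.6, 25.4 and 25.5 TPM in KO (log2 difference -1.05, standard error 0.41). ATF4 itself overlapped at 333 and 323 TPM in WT and 393, 340.1 and 293 TPM in KO, as did DDIT3 and ASNS. Of 28 tested ER chaperone and ER-associated degradation genes, 1 lay above and 1 below (3.57% each, against 5.65% and 7.97% of all genes tested).

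Cytosolic heat shock proteins lay below WT in 3 of 20 tested members (15%, against 7.97% of all genes tested) and above in 0, and none was called. Their median of -0.25 rested on KO clone 1, without which it was -0.013, and it was -0.39 without KO clone 3. HSPA1A, an inducible chaperone, was at 6918 and 6842 TPM in WT and at 2378, 3511 and 5897 TPM in KO. Its near-identical copy HSPA1B overlapped, and the sum of the pair was 19894 and 19945 TPM in WT and 8652, 14241 and 21324 TPM in KO. KO clone 1 had the least, KO clone 3 more than either WT clone, and the groups of the sum overlapped. CRYAB and HSP90AA1 had log2 differences of -0.85 and -0.29. HSPA8, HSPH1 and DNAJB1 overlapped and were lowest in KO clone 1, the library with the highest mitochondrial share.

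Immediate early genes lay below WT in 4 of 25 tested members (16%, against 7.97% of all genes tested) and above in 0, and none was called. Their median of -0.10 turned to 0.11 without KO clone 1 and was -0.28 without KO clone 2. ARC was at 110.3 and 106 TPM in WT and at 47.6, 88.7 and 62.1 TPM in KO. FOS, a subunit of AP-1, was at 95.2 and 95.3 TPM in WT and 48.5, 84.2 and 81.2 TPM in KO. KO clone 1 was lowest for both. The MAP kinase phosphatases DUSP6 and DUSP4 had log2 differences of -0.51 and -0.19.

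Sugar carriers lay on both sides. SLC2A1, the ubiquitous glucose carrier, was at 133 and 132 TPM in WT and 160.4, 182 and 201 TPM in KO. SLC2A3, a high-affinity glucose carrier, was at 70.1 and 70.3 TPM in WT and 44.4, 61.1 and 49.6 TPM in KO. Of 28 tested genes of glycolysis and lactate, 1 lay above WT (3.57%, against 5.65% of all genes tested) and 4 below (14.3%, against 7.97%). Beside SLC2A3 the lower genes were TPI1, PKM and SLC16A3, with differences of -0.13, -0.08 and -0.11. Of 19 tested amino acid and urea cycle genes, 2 lay above WT (10.5%, against 5.65% of all genes tested) and 3 below (15.8%, against 7.97%). CPS1 and GPT2 were the genes above, and ASS1, SLC43A1 and SLC1A3 those below. ASS1, which makes argininosuccinate, was at 15.1 and 15.1 TPM in WT and at 11.96, 6.85 and 9.41 TPM in KO. The glutamate carrier SLC1A3 was at 3.81 and 4.61 TPM in WT and 2.40, 2.32 and 1.45 TPM in KO. In 7 metallothionein genes, which bind zinc and copper, none was free of overlap. Of 25 tested mitosis genes, 2 lay above WT (8%, against 5.65% of all genes tested) and 0 below (against 7.97%). Of 27 tested DNA replication genes, 0 lay above and 2 below (7.41%, against 7.97%).

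**Figure D3:**
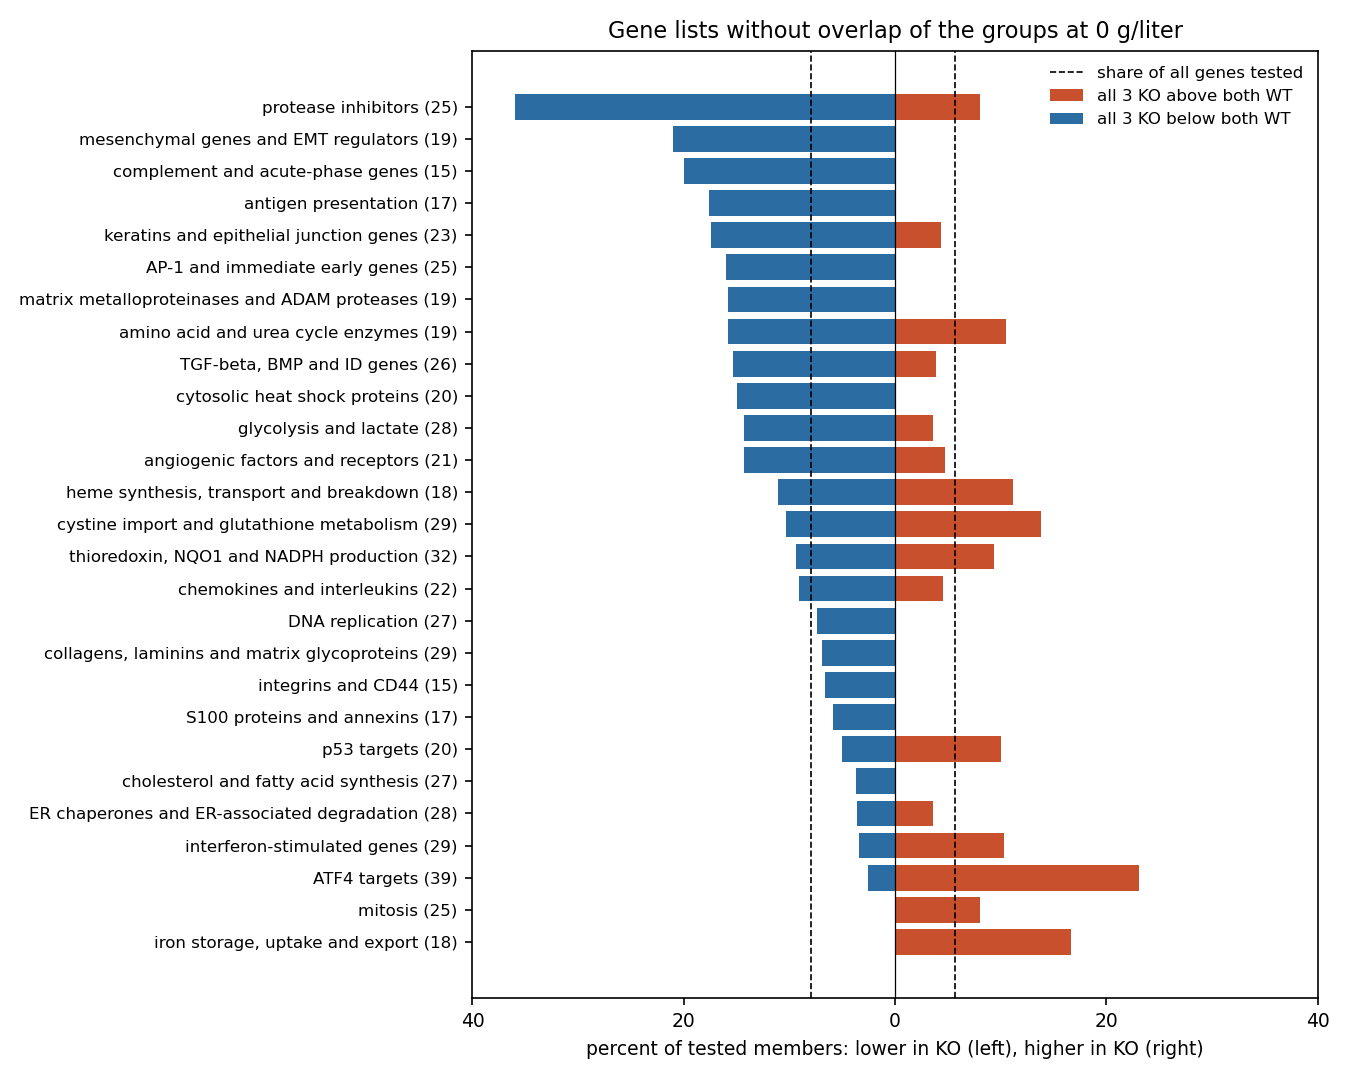
Percent of the tested members of each gene list whose KO and WT clones do not overlap at 0 g/liter, with members lower in KO to the left and members higher in KO to the right. Lists have 15 or more tested genes (number in brackets), dashed lines give the share of all genes tested (7.97% lower, 5.65% higher), protease inhibitors have the longest bar to the left (36.0%) and ATF4 targets the longest to the right (23.1%). Members that reached the level filter through the WT or the KO libraries alone are counted.

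Of 85 tested ribosomal protein genes, 16 lay below WT (18.8%, against 7.97% of all genes tested and 13% of those at 500 TPM or more) and 0 above, and the other 69 overlapped. The 16 differed by -0.38 to -0.09, the median over the 85 was -0.09, and none was called. RPS10 was at 2059 and 2029 TPM in WT and 1879, 1633 and 1798 TPM in KO. CLIC1, a chloride intracellular channel protein, was at 674 and 685 TPM in WT and 602, 543 and 543 TPM in KO. On the higher side CCN1, a matricellular protein, was at 553 and 606 TPM in WT and 823, 709.7 and 945 TPM in KO, with a log2 difference of 0.50.

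Part of the difference between clones lay in whole chromosomes and chromosome arms. The medians were taken after the values had been seen, over 9511 protein-coding genes with a mean of at least 5 TPM, of which 5.59% lay above WT and 7.62% below. On chromosome 14 the median gene differed from the WT mean by -0.47 in KO clone 3, by -0.0041 in KO clone 1 and by 0.06 in KO clone 2. On chromosome X the medians were -0.53, 0.31 and 0.27 in KO clones 1 to 3. Such shifts in single clones widen the spread of the KO group. On chromosome 13 the medians were -0.07, -0.26 and -0.30, and 57 of 165 genes (34.5%) lay below WT. From 90 to 115 Mb of that chromosome all 3 clones were shifted (-0.24, -0.36 and -0.30) and 26 of 44 genes (59.1%) lay below WT. From 0 to 60 Mb of chromosome 6 all 3 were shifted by less (-0.16, -0.10 and -0.12), and 78 of 295 genes (26.4%) lay below. From 45 to 135 Mb of chromosome 4 the medians were 0.07, 0.21 and 0.12, and 30 of 161 genes (18.6%) lay above. The shifts were of similar size in the same clones at 4.5 g/liter, with -0.45 for chromosome 14 in KO clone 3 and -0.54, 0.28 and 0.28 for chromosome X. The WT clones differed from each other by -0.19 on chromosome X and by -0.16 on chromosome 4. DNA was not measured, and BACH1 loss and differences between clones cannot be told apart for these regions.

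**Figure D4:**
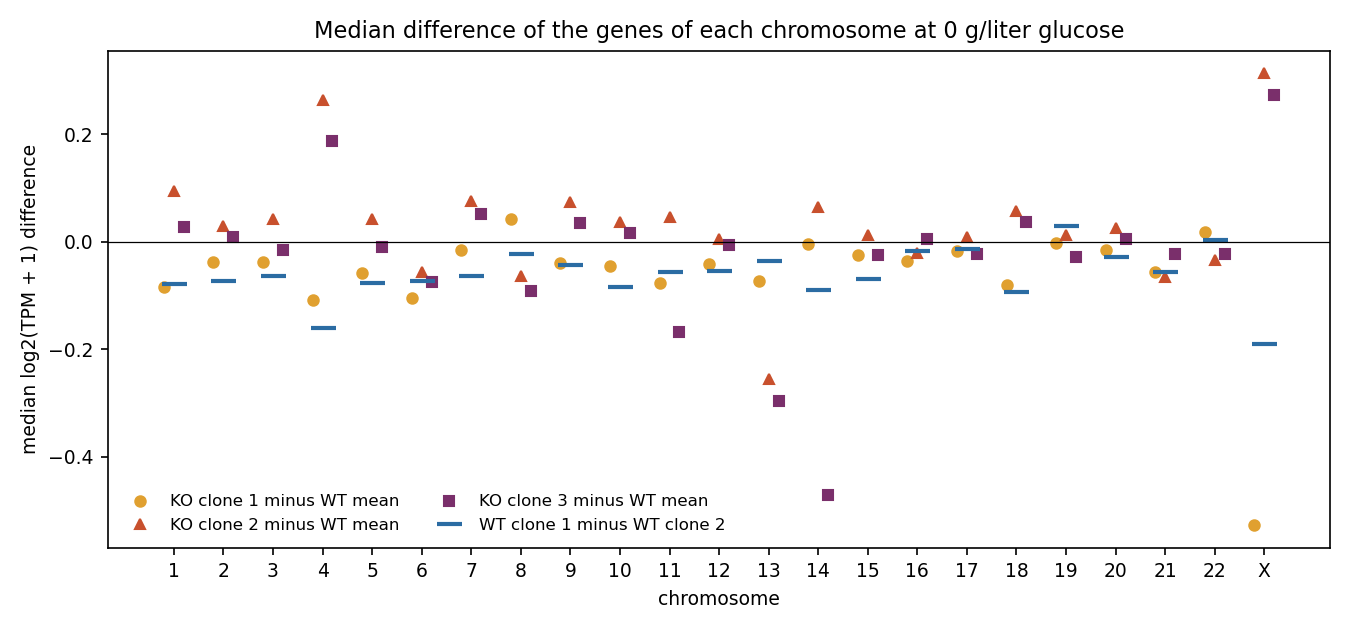
Median log2(TPM + 1) difference of the genes on each chromosome at 0 g/liter (y axis) for each KO clone against the mean of both WT clones, and for WT clone 1 against WT clone 2 (blue bars), over 9511 protein-coding genes. KO clone 3 is shifted by -0.47 on chromosome 14, KO clone 1 by -0.53 on chromosome X, and KO clones 2 and 3 by -0.26 and -0.30 on chromosome 13.

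Some of the genes described above lie in these regions. Antigen presentation genes lay below WT in 3 of 17 tested members (17.6%, against 7.97% of all genes tested). Their median was -0.03, and it turned to 0.28 without KO clone 1. HLA-E (119 and 122 TPM in WT, 92.9, 98.8 and 78.9 TPM in KO) and TAP2, a peptide transporter subunit (52.98 and 57.0 TPM in WT, 41.7, 44.5 and 35.3 TPM in KO), lie in the shifted part of chromosome 6, as do HSPA1A, CLIC1 and RPS10. The median of their neighbours within 7.5 Mb was -0.12 to -0.13, against log2 differences of -0.42 for HLA-E and -0.44 for TAP2. From 75 to 135 Mb of chromosome 11 the medians were -0.31, 0.11 and -0.31, and MMP1, MMP3, MMP10, TAGLN and CRYAB lie there. From 30 to 90 Mb of chromosome 1 the medians were -0.19, 0.29 and 0.22 in KO clones 1 to 3. SLC2A1, SLC6A9 and CCN1 lie there, with neighbour medians of 0.12, 0.13 and 0.0039, against log2 differences of 0.44, 0.54 and 0.50. HMOX1, FTH1, GCLM, TIMP3, KRT19 and GGT5 had neighbour medians from -0.02 to 0.01. When each clone's value was centred on its neighbourhood, an alternative chosen after seeing the data, 1201 of the 1774 genes (67.7%) were still without overlap among 1865, and 6 genes were called, the same 5 and HMOX1.

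The clones were also compared at 4.5 g/liter over the same genes, where 814 lay above WT (6.25%), 1916 below (14.7%) and 10 were called (0.0768%), 5 in each direction (0.0384% each). Leaving out the first WT clone there reduced these calls to 2. Of the 736 genes above WT without glucose, 154 (20.9%) were also above at 4.5 g/liter, which is 18.9% of the list there, and 36 were below. Of the 1038 genes below, 407 (39.2%) were also below, which is 21.2% of the list there, and 20 were above. The clones are the same at both levels, so this is no independent repeat. FTH1, HMOX1, GCLM, TIMP3, KRT19 and CST7 kept their direction in every clone.

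The 5 libraries had 12477 to 12910 genes at 1 TPM or more. All 10 markers of basal, mesenchymal breast cancer cells were measured, 9 of them at 1 TPM or more in each of the 5 libraries, with a summed level of 3714 to 3896 TPM in WT and 3761 to 4355 TPM in KO. Among 12 luminal markers, ESR1, PGR, FOXA1 and CDH1 were under 1 TPM in all 5 libraries, and the sum was 648 to 684 TPM in WT and 411 to 650 TPM in KO, with KRT18 and KRT19 among the lower genes. Of 10 blood and endothelial markers, 7 were under 1 TPM in all 5, among them the defining markers PTPRC, CD3E and PECAM1. The sum of the 10 was lower in KO, 160.4 to 161 TPM in WT and 135 to 136 TPM in KO, and nearly all of it was CD68, a lysosomal protein of macrophages and other cells, at 153 and 153 TPM in WT and 132, 125 and 131 TPM in KO. CD14 was at 1.85 and 2.09 TPM in WT and 0.763, 1.66 and 1.37 TPM in KO. Of 8 fibroblast markers, 5 were under 1 TPM in all 5, among them COL1A2, DCN and FAP, and the sum was 14.7 to 15.9 TPM in WT and 11.3 to 17.9 TPM in KO. The part of these markers in the results above was not tested.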

How the data were processed

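RNA-seq was analysed from 2 WT and 3 BACH1 KO clones of MDA-MB-231 at 0 g/liter glucose, with the same clones at 4.5 g/liter in the same fit. The authors enriched mRNA by poly-A pull-down and sequenced single-end reads. They quantified the reads with kallisto 0.44.0 against GRCh38.p12 and deposited TPM per gene symbol. The submitters' notes also name bcl2fastq 2.19 and DESeq2. How transcripts were summed per symbol and whether strand was used are not given in the sources used here. TPM keeps no depth, so no counting interval is given, and a count test is not possible. Calendar dates in place of symbols (27 entries) were dropped.

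A linear model of log2(TPM + 1) was fitted with limma 3.58.1 in R 4.3.3 on the means of 4 groups, with 6 residual degrees of freedom, moderated variances with a trend on level, two-sided tests and Benjamini-Hochberg adjustment. Differences on this scale understate the change of low genes. Since each clone gave 1 library per condition, there is no technical replicate. The main fit treats a clone's libraries at both glucose levels as independent, so its p-values do not measure variation among clones alone. The fit on the 5 libraries at 0 g/liter alone has 3 residual degrees of freedom and called TIMP3 only. Both glucose levels of a clone come from the same line, and their deviations from the group means correlated at 0.116 in WT and 0.421 to 0.620 in KO. No libraries held identical values. In simulations over 13023 genes, independent noise with each gene's spread was drawn around its mean over all 10 libraries, and 200 genes were changed. The KO against WT contrast at 0 g/liter recovered 62.1% of genes set to differ by 1 and 91.4% of those set to differ by 2 (log2). A mean of 7.8 unchanged genes was called per run. Correlation between a clone's libraries and shifts of whole chromosomes were not simulated, so these rates hold for that setting only.

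Genes named are the first 15 per direction without overlap and at least 5 TPM in the higher group, the first 3 per direction under 5 TPM, the called genes, BACH1, HMOX1 and the 5 genes of the study's text, and up to 4 members without overlap of each list. FTL, HMOX2, SLC7A11, NQO1, TXNRD1, MAFG, BACH2, ATF4, DDIT3, ASNS, HSPA8, HSPH1, DNAJB1, HSPA1B, HIST2H2AA4, CST1, TFPI2, TMSB4XP3, genes listed beside their counts and abundant genes were named after their values were seen. The members and lists were chosen with earlier results of these data known. Gene positions come from GENCODE v44, matched by symbol for 94.8% of the genes. The fit was repeated with a pseudocount of 0.1, with other filters, after median-ratio scaling or quantile normalization, on the 5 libraries alone, with blocks, without the trend, and without each library.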

Additional observations from a re-analysis of the deposited data

Results flagged for a closer look

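The difference between BACH1 KO and WT clones differed between glucose levels for HMOX1, with an interaction of -3.80 on the log2(TPM + 1) scale in limma. HMOX1 was higher in all 3 KO clones than in both WT clones at each level, by 5.43 at 4.5 g/liter and by 1.63 at 0 g/liter.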

How the results depend on the processing

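Of 2339 values of the 118 named genes under 20 alternatives, 2298 kept their direction and side of the threshold, 21 lost a call, 19 gained one and 1 turned, BACH1, which ranged from -0.43 to 0.011 with 1 library left out and was above 0 without KO clone 1 at 0 g/liter. Calls at 0 g/liter (5, of which 1 higher and 4 lower) numbered 3 with 2 lower at a minimum of 5 TPM, 28 with 27 lower without a filter, and 1 (0 higher, 1 lower) with the 5 libraries alone. With median-ratio scaling or neighbourhood centring 2 genes were called higher. Genes without overlap (1774) numbered 3013 without a filter, 1192 higher and 1821 lower. The interaction, called for 1 gene, had 3 calls with a pseudocount of 0.1 or without the trend, 5 without a filter and 2 with neighbourhood centring. The cause was not tested. Leaving out 1 library gave 1 to 10 calls (0 to 4 higher, 1 to 7 lower), 3332 to 5307 genes without overlap where the library was at 0 g/liter (1377 to 2809 higher, 1736 to 2648 lower), a count that grows by construction with fewer clones, 0 to 2 interaction calls and, at 4.5 g/liter, 2 to 10 calls. WT clone 1 and KO clone 1 are different lines, so clones of equal number share only that number (correlation of deviations 0.256 and 0.208). A block on that number gave 12 calls (2 higher, 10 lower) and 3 for the interaction, and a random block on the clone, which pairs its glucose levels, gave 6 (2 higher) and 3. Where 1 library was left in a WT group, it is assumed to vary like the others. Depth is unknown, so which low genes it limits cannot be said.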
